A study of Mus musculus with 2 samples.

Results

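Aquaporins are membrane channels that let water cross the lipid bilayer along osmotic gradients. The 9 genes described here are Aqp1, Aqp2, Aqp3, Aqp4, Aqp5, Aqp7, Aqp8, Aqp9 and Aqp11, chosen by symbol and matched to the tables by gene identifier through GENCODE. They were followed among 42462 genes with a symbol, of 69691 features in each gene table. Each of the 9 was found in both tables. The RNA came from whole stomachs of 2 mouse pups of strain B6NCrl, pup 1 and pup 2, collected at postnatal day 0 from 1 dam, with no treatment named and sex not collected. There is thus 1 group of 2 samples, each pup gave 1 library of total RNA, and the data describe levels and the spread between these pups.

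The channel is built from 2 repeats that meet in the middle of the membrane, and each repeat carries a short loop, the asparagine-proline-alanine box, at the narrow part of the pore. Classical aquaporins (Aqp1, Aqp2, Aqp4, Aqp5 and, more distantly, Aqp8) conduct mainly water. The 3 aquaglyceroporins Aqp3, Aqp7 and Aqp9 also conduct glycerol and other small solutes, and Aqp11 belongs to a divergent branch found in intracellular membranes. In the adult stomach, AQP4 is known from the basolateral membrane of parietal cells, AQP3 from the basolateral side of stratified and surface epithelium, AQP5 from pyloric glands and AQP1 from the endothelium of small vessels.

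The stretches that encode the pore boxes are shown for Aqp1, Aqp3, Aqp5, Aqp9 and Aqp11, and for Aqp7, whose boxes differ from the rest of its branch. Those of Aqp2, Aqp4 and Aqp8 are not printed. Each line gives 27 bases of coding sequence of the mouse reference (GENCODE M21, mm10), read 5′ to 3′ on the coding strand, and the capitals mark the 3 codons of the box.
Aqp1, first box, chr6:55336707-55336733, exon 1: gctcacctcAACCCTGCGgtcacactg
Aqp1, second box, chr6:55345828-55345854, exon 3: tgcggtatcAACCCTGCCcggtcattt
Aqp5, first box, chr15:99591467-99591493, exon 1: ggccacatcAATCCGGCCattactctg
Aqp5, second box, chr15:99593261-99593287, exon 3: tgttccatgAACCCAGCCcgatctttc
Aqp3, first box, chr4:41094810-41094836, exon 3: gcccacttgAACCCCGCTgtgaccttc
Aqp3, second box, chr4:41093832-41093858, exon 5: tatgccgtcAACCCTGCCcgtgacttt
Aqp9, first box, chr9:71132732-71132758, exon 3: ggccacatcAACCCAGCGgtgtctttt
Aqp9, second box, chr9:71122841-71122867, exon 5: tgtgccatgAACCCTGCTcgagacctc
Aqp7, first box, chr4:41035602-41035628, exon 3: gcccacatgAATGCCGCAgtgactttc
Aqp7, second box, chr4:41034804-41034830, exon 5: tatgcaatcAACCCATCCcgtgacctg
Aqp11, first box, chr7:97737676-97737702, exon 1: acagctagcAACCCGTGCggcgtgatg
Aqp11, second box, chr7:97729044-97729070, exon 2: gcattgtttAACCCAGCGctggcactt

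Codons for asparagine-proline-alanine were searched in frame on the coding strand. They occurred 2 times in Aqp1, Aqp2, Aqp3, Aqp4, Aqp5, Aqp8 and Aqp9. Of 21526 mouse genes with a complete coding sequence, 7.39% held at least 1 such box and 0.711% held at least 2. Aqp11 held 1 exact box, preceded by asparagine-proline-cysteine. A looser pattern, asparagine followed by proline or alanine and then by alanine, cysteine, serine or threonine, was used for these 2 genes; it includes the exact box. Aqp7 held no exact box, and the first 2 matches to the looser pattern in Aqp7 were asparagine-alanine-alanine and asparagine-proline-serine. The boxes lay 113 codons apart in Aqp1, Aqp2, Aqp4 and Aqp5, 115 apart in Aqp8 and 114 apart in Aqp11. In each of the aquaglyceroporins Aqp3, Aqp7 and Aqp9 they lay 129 codons apart. Those 3 genes also shared a structure of 6 coding exons, as did Aqp8, against 4 in Aqp1, Aqp2 and Aqp5, 5 in Aqp4 and 3 in Aqp11. These are features of the reference, not measurements of the pups.

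**Figure D1:**
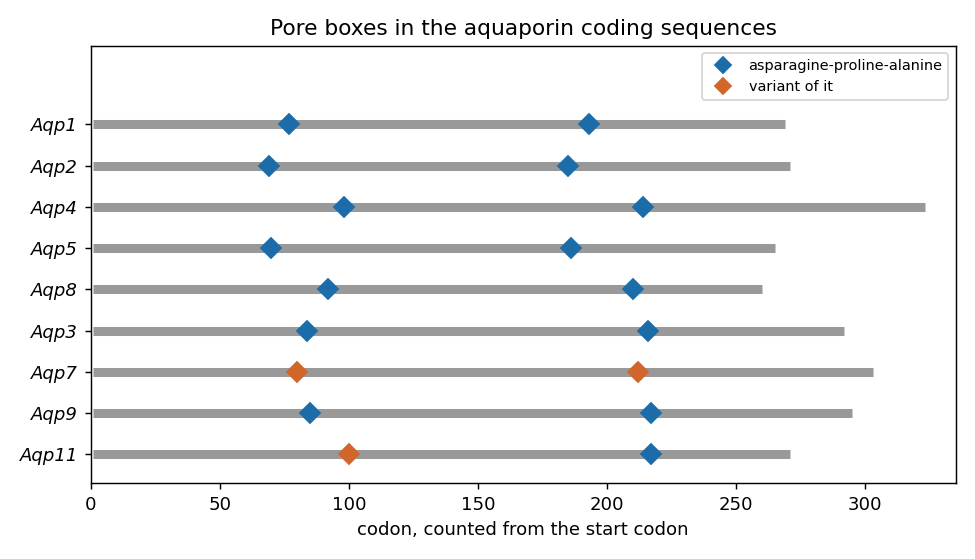
The horizontal axis counts codons from the start codon, each grey bar is the coding sequence of 1 aquaporin in the reference, and diamonds mark the boxes (blue for asparagine-proline-alanine, orange for a variant). The boxes of Aqp3, Aqp7 and Aqp9 lie 129 codons apart, against 113 to 115 in the other 6 genes.

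The libraries held 51524479 expected counts (estimated reads per gene) in pup 1 and 49983574 in pup 2. Levels are given as TPM (relative abundance of transcripts, scaled to 1000000 over all features), which accounts for length and can be compared between genes, and each TPM comes with a credibility interval of the quantification, whose level is not stated in the labels or file headers. The stomach markers that bear on the members were present: the parietal proton pump gene Atp4a had TPM values of 519 and 598 in pups 1 and 2, and the basal squamous keratin gene Krt5 at 433 and 479. Markers of kidney and fat, where Aqp2 and Aqp7 are best known, were scarce. The 5 kidney markers summed to a TPM of 2.07 and 1.12, with Umod at 0 counts in both pups, and the 6 adipocyte markers summed to 6.72 and 6.69, nearly all of it Cidea, with Cfd at 0 counts in both. In whole-tissue RNA, fewer cells of a type and less RNA per cell cannot be told apart.

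Aqp3 was the dominant aquaporin of the newborn stomach. Its TPM was 195 in pup 1, from 13325 counts, and 173 in pup 2, from 11448 counts (mean 184 ± 15.0 SD, n = 2), the higher value thus being in pup 1. This was 84.4% and 82.3% of the summed TPM of the 9 genes, which came to 221 ± 13.9 (SD, n = 2). Aqp3 lay above 96.6% of 21474 protein-coding genes. Its level was near that of the sodium pump subunit gene Atp1b1 (187 ± 5.56 SD, n = 2). The next aquaporin in the order, Aqp11, was 12.5-fold lower in pup 1 and 10.8-fold lower in pup 2.

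Aqp11 and Aqp1 followed at close levels. Aqp11, the intracellular member, had TPM values of 15.6 and 16.1 in pups 1 and 2 (mean 15.8 ± 0.375 SD, n = 2). These values rest on Aqp11-201 alone and on its length of 1322 bases. In M21 that transcript lacks a start codon. Aqp1, the water channel of vessels and red cells, stood at 13.9 and 13.1 (mean 13.5 ± 0.573 SD, n = 2). The 2 values of Aqp11 lay above those of Aqp1, but their credibility intervals overlapped in pup 1 (14.3 to 16.4 against 13.0 to 14.4), so this order was not resolved. These genes lay above 72.6% and 69.9% of protein-coding genes.

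Aqp4, the water channel of parietal cells, astrocytes and muscle, had TPM values of 3.73 and 4.12 in pups 1 and 2 (mean 3.93 ± 0.276 SD, n = 2). Its level was 3.73-fold below Aqp1 in pup 1 and 3.18-fold below it in pup 2, and the intervals were apart in both pups. Aqp9, an aquaglyceroporin best known from liver and neutrophils, had values of 1.82 and 2.37 (mean 2.10 ± 0.389 SD, n = 2). The value of 1.82 lay just under its own credibility interval, 1.84 to 2.79, which is built around the posterior mean. Aqp4 and Aqp9 lay above 51.1% and 44.1% of protein-coding genes, close to the middle of the distribution.

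The other 4 members fell short of a TPM of 1 in at least 1 pup, the level used here for detection, so that 5 of the 9 were detected against 61.2% of all protein-coding genes. Aqp5, the apical channel of secretory glands, had TPM values of 0.55 (33 counts) and 1.14 (66 counts) in pups 1 and 2. Aqp7, the glycerol channel of fat cells, had values of 0.33 (28 counts) and 0.41 (37 counts). Aqp5 and Aqp7 were not set apart, since their intervals overlapped in pup 1. Both were above the limit that a count of 0 allows, which is 3 counts.

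Aqp8 and Aqp2 were at the edge of detection. Aqp8, known from pancreas, liver and colon, had 3 and 6 counts in pups 1 and 2, or TPM values of 0.05 and 0.12. Aqp2, the vasopressin-controlled channel of the kidney collecting duct, had 0 counts in pup 1 and 2 in pup 2. For Aqp2, the limit of 3 counts corresponds to TPM values of 0.0551 and 0.0573 in these libraries, and the reads of pup 2 lie under it. These limits, and the count intervals used further on, describe counting error alone and make no allowance for PCR copies of the same molecule. The 3 aquaporin genes outside the list of 9 were similarly low: Mip, the lens channel, and Aqp6, an intracellular channel of the kidney, had 0 counts in both pups, and Aqp12, a gene of pancreatic acinar cells, had 0 and 4 counts.

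**Figure D2:**
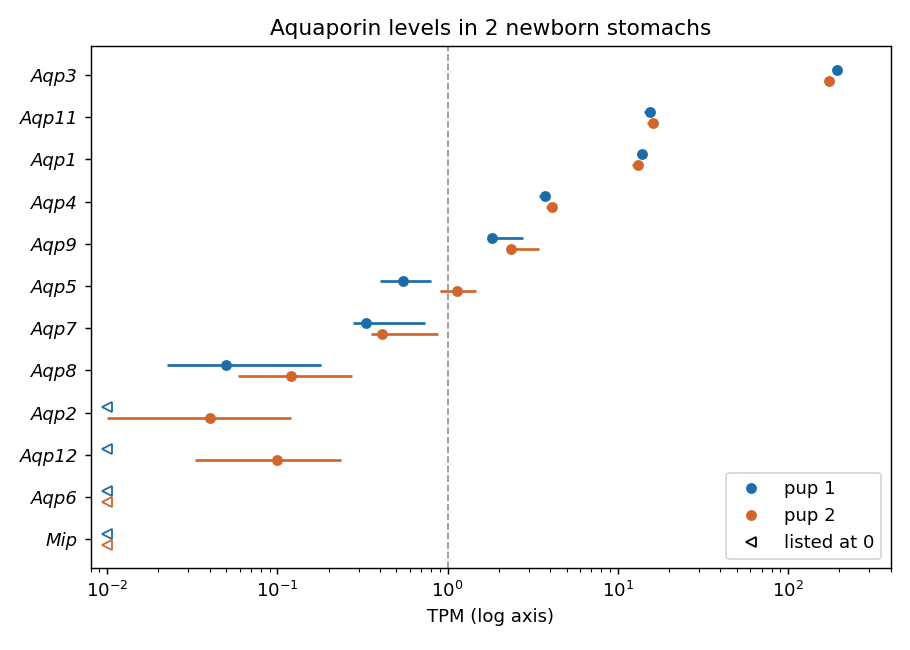
Each row is 1 aquaporin gene and the horizontal log axis is TPM, with a dot per pup (blue pup 1, orange pup 2), bars for the deposited credibility interval, open triangles for values listed at 0 and a dashed line at a TPM of 1. Aqp3 stands at 195 and 173, Aqp11 and Aqp1 lie between 13.1 and 16.1, and Mip and Aqp6 are listed at 0 in both pups.

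The order of the 9 levels was the same in both pups. Of the 8 pairs of neighbours in that order, 5 were set apart, meaning that the credibility intervals were apart in each pup and the ranges over the pups did not overlap. The 3 pairs that were not were Aqp11 and Aqp1, Aqp5 and Aqp7, and Aqp8 and Aqp2. The members thus fell into 6 steps: Aqp3, then Aqp11 with Aqp1, then Aqp4, then Aqp9, then Aqp5 with Aqp7, and last Aqp8 with Aqp2.

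**Figure D3:**
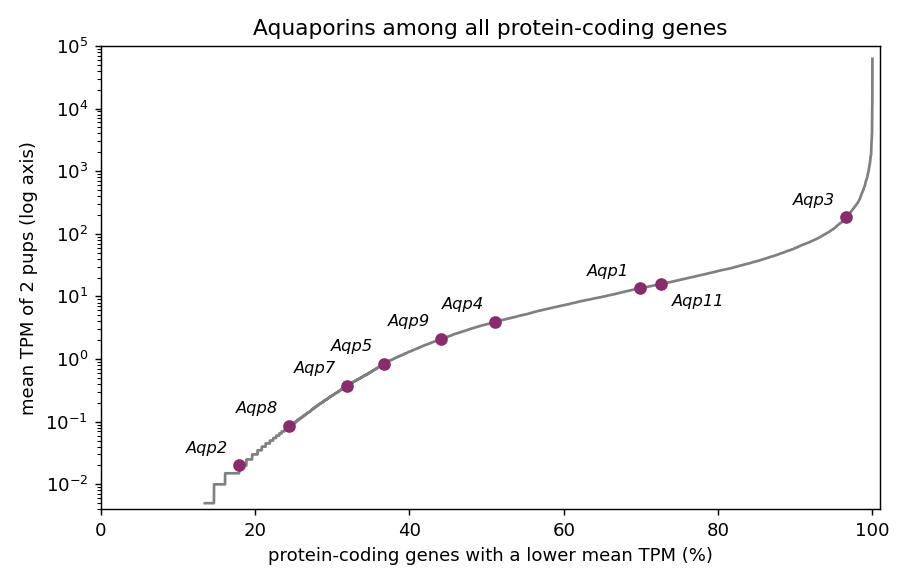
The grey line orders all 21474 protein-coding genes by mean TPM of the 2 pups (vertical log axis) against the percent of genes with a lower mean (horizontal axis), and purple dots mark the aquaporins. Aqp3 lies above 96.6% of the genes, Aqp4 near the middle at 51.1% and Aqp2 above 17.9%.

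Members of 1 branch or 1 gene cluster stood at very different levels. The aquaglyceroporins span the range from Aqp3 at 184 through Aqp9 at 2.10 to Aqp7 at a mean TPM of 0.37. Aqp7 (chr4:41033074-41048139, minus strand) and Aqp3 (chr4:41092722-41098183, minus strand) lie 44.6 kb apart, with only Gm25637 annotated between them, and the TPM of Aqp3 was 590-fold that of Aqp7 in pup 1 and 423-fold in pup 2. By the posterior mean these folds were 392 and 285, since the 28 and 37 counts of Aqp7 fix its level only loosely (0.279 to 0.74 in pup 1). Aqp2 (chr15:99579055-99584547), Aqp5 (chr15:99590782-99594829) and Aqp6 (chr15:99601400-99605477) stand in a row on the plus strand, with gaps of 6.23 kb and 6.57 kb and no annotated gene between. Of these 3 genes, Aqp5 alone had more than 2 counts in either pup. Aqp11 (chr7:97724006-97738289, minus strand) and Aqp8 (chr7:123462291-123468004, plus strand) share a chromosome but lie far apart, and Aqp1 (chr6:55336432-55348555, plus strand) and Aqp9 (chr9:71110659-71168682, minus strand) stand alone. All positions are those of mm10.

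Differences between the pups were small for the members with many reads. With 1 library per pup they compare 2 libraries and have no replicate check, so no p was computed. The ratio given for a pair of counts is per total counts, with a 95% exact binomial interval. Aqp3 was lower in pup 2, with a count ratio of 0.886 (0.864 to 0.908), and its credibility intervals did not overlap (189 to 196 in pup 1, 168 to 174 in pup 2). Aqp1 had a ratio of 0.933 (0.865 to 1.01) and Aqp11 of 1.02 (0.927 to 1.13). Aqp4 had 1.10 (0.991 to 1.21) and Aqp9 had 1.15 (0.937 to 1.42). The intervals of these last 4 genes include 1, and the widest of them, that of Aqp9, reaches from 0.937 to 1.42.

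Among the 7 members with a mean count of at least 10, Aqp5 differed most. Its count ratio was 2.06 (1.34 to 3.23), its TPM was 2.07-fold higher in pup 2, and the credibility intervals were apart (0.40 to 0.795 in pup 1, 0.898 to 1.46 in pup 2). Aqp7 had a ratio of 1.36 (0.811 to 2.31), and Aqp8, with 3 and 6 counts, had a TPM fold of 2.40 and a count ratio of 2.06 with an interval of 0.44 to 12.7. The depth of these libraries does not separate either from no difference.

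A gene was called different between the pups where its credibility intervals were apart, its TPM differed at least 2-fold and its mean count was at least 100. Of the 5 members with that many counts, Aqp1, Aqp3, Aqp4, Aqp9 and Aqp11, none was called, against 0.423% of 13951 genes. At a mean count of at least 10, the members with enough counts were 7 and 1 of them, Aqp5, was called, against 0.854% of 18492 genes. Its TPM fold of 2.07 was just over the limit. The posterior mean TPM values of Aqp5, 0.59 in pup 1 and 1.17 in pup 2, were less than 2-fold apart. Intervals that were apart, with no limit on fold, were found in 2 of those 7 members (Aqp3 and Aqp5) and in 16.8% of the genes. The median log2 ratio of TPM + 1, pup 2 over pup 1, was 0.08 over these 7 members and 0.03 over the 18492 genes, of which 95% lay between -0.38 and 0.39. Aqp5 had 0.47 on this scale, which understates differences of low genes, and the other 6 lay between -0.17 (Aqp3) and 0.26 (Aqp9).

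**Figure D4:**
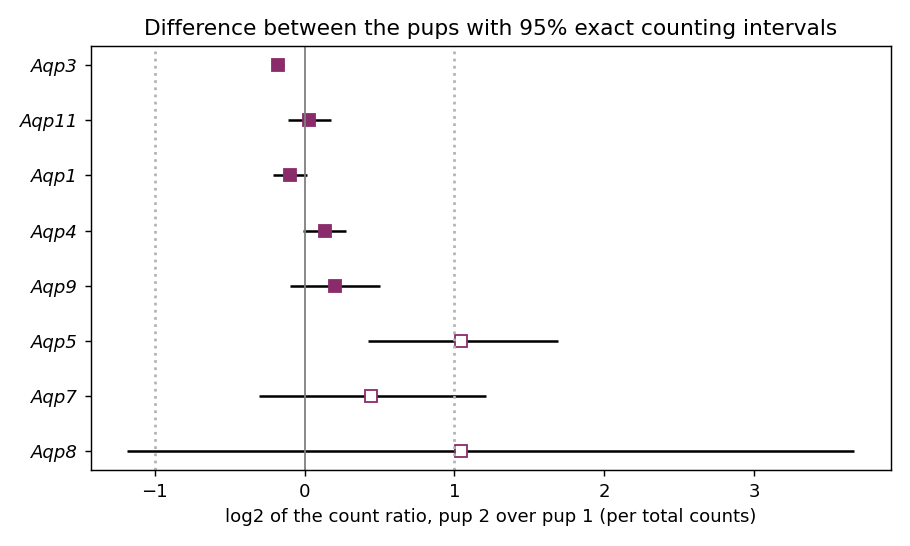
Squares show the log2 of the count ratio, pup 2 over pup 1 and per total counts, with 95% exact binomial intervals, filled where the mean count is at least 100, and dotted lines mark 2-fold. Aqp5 lies at a ratio of 2.06 with an interval above 1, Aqp3 at 0.886 with an interval below 1, and the intervals of the other 6 genes include 1. Aqp2, with 0 counts in pup 1, is not drawn.

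Markers of the cells in which each member is best known were read in the same libraries, and their part in the aquaporin values was not tested. Aqp3 was lower in pup 2, and each of 6 basal squamous markers was higher there, their summed TPM being 1368 and 1569. The 4 surface mucous markers summed to 21220 and 21170. Aqp4 had a log2 ratio of 0.11, and each of 5 parietal markers was higher in pup 2, with sums of 1275 and 1525. Skeletal muscle, which also carries AQP4, had marker sums of 66.3 and 73.0 over 5 genes, and glia 9.78 and 9.96 over 4 genes.

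For Aqp1, the 8 endothelial markers had summed TPM values of 157 and 168 in pups 1 and 2, and the 8 erythroid markers to 1522 and 1925, while Aqp1 itself stood at 13.9 and 13.1. For Aqp5, each of the 5 pyloric gland and mucous neck markers was lower in pup 2, the opposite side to Aqp5. Their sum was 993 in pup 1 and 862 in pup 2, with the gastrin gene Gast at a TPM of 72.7 and 44.6 and the pyloric factor gene Pdx1 at 1.58 and 1.37. The 4 lung markers, a tissue rich in AQP5, summed to 12.7 and 11.0, most of it the club cell gene Scgb1a1 (10.8 and 9.28), and the other 3 summed to 1.91 and 1.72. Of those, the surfactant gene Sftpc had values of 0.34 and 0.39, and Sftpb had 0 and 1 counts.

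For Aqp9 and Aqp8, both known from liver, each of the 7 liver markers was higher in pup 2, with sums of 151 and 238. The alpha-fetoprotein gene Afp (20.8 and 47.2) and the fibrinogen gene Fgb (2.38 and 5.21) were called different between the pups. Also for Aqp9, the 6 neutrophil and macrophage markers summed to 198 and 181, led by C1qb (69.2 and 68.3). Of the 6, 5 were lower in pup 2, and Camp was higher there (1.64 and 2.47). For Aqp8, the 6 pancreas acinar markers summed to 64.8 and 42.3, and to 44.0 and 35.7 without the amylase gene Amy2a5, whose credibility intervals were wide and overlapped. The 6 intestine markers summed to 31.0 and 21.9, with the brush border genes Alpi (9.83 and 4.89) and Lct (2.36 and 1.11) called. No gene of the other marker lists was called. Over all genes with a mean count of at least 100, 0.423% were called. The 5 mesothelium markers summed to 129 and 116, the 5 markers of the upper squamous layers to 21500 and 22620 and the 4 chief cell markers to 20730 and 21710.

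The deposited annotation held few transcripts of most of these genes. Per the deposited tables, Aqp1, Aqp2, Aqp4 and Aqp11 each had 1 annotated transcript, Aqp3, Aqp5 and Aqp8 had 2, Aqp7 had 4 and Aqp9 had 10. The M21 annotation holds 11 for Aqp4, 6 for Aqp5, 5 for Aqp11 and 3 for Aqp8, so further forms of these 4 genes were not quantified. The posterior standard deviation of the gene count was 0 for all 9 members in both pups, so that no reads were divided between an aquaporin and another gene. Aqp3-201, which encodes the full channel, held 99.3% of the TPM of Aqp3 in pup 1 and 99.7% in pup 2. The retained-intron transcript Aqp3-202 held the remainder, from 17.6 and 7.10 counts.

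Aqp9-202 was the main transcript of Aqp9, with 90.6% of its TPM in pup 1 and 79.7% in pup 2. As a share of reads it held 98.3% and 96.6%, and by the posterior mean, which spreads some TPM over all 10 transcripts, 63.3% and 59.6%. Short noncoding transcripts weigh heavily per length: Aqp9-204, of 379 bases, held 10.1% of the TPM in pup 2 from 2.66 counts and 0 in pup 1. Aqp9-208 held 5.34% and 5.05% from 2.09 and 2.48 counts. The Aqp9 ratio between pups was 1.30-fold on the TPM scale and 1.15 on the count scale.

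Among the members with counts in both pups, Aqp7 was the only one whose main transcript differed between the pups. Aqp7-202 held 100% of its TPM in pup 1 and 47.0% in pup 2, where Aqp7-201 held 53.0%. Both encode the same 303 codons, and the annotated start of Aqp7-201 lies further upstream, at position 41048139 of chromosome 4 against 41045448. The TPM intervals of Aqp7-201 (up to 0.184 in pup 1, 0.0564 to 0.409 in pup 2) overlapped, and the gene had 28 and 37 counts, so this was not resolved at this depth. By the posterior mean, Aqp7-202 held 53.6% and 28.8% of the TPM and Aqp7-201 held 13.3% and 39.3%. All 33 and 66 counts of Aqp5 were assigned to Aqp5-202, which has the same coding sequence as Aqp5-201. By the posterior mean, 27.9% of the TPM in pup 1 and 9.41% in pup 2 went to Aqp5-201. Aqp8 had too few counts to divide.

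**Figure D5:**
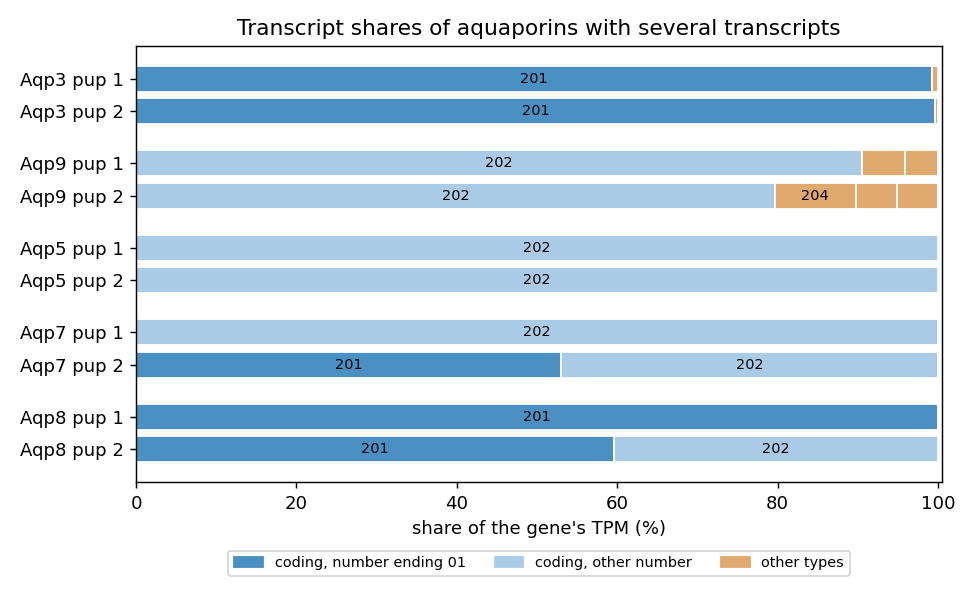
Each bar is 1 gene in 1 pup and the horizontal axis is the percent of the gene's TPM in each transcript, with transcript numbers in the wider segments, blue shades for protein-coding and orange for other transcript types. Aqp3-201 holds over 99% in both pups, Aqp9-202 holds 90.6% and 79.7%, and Aqp7 shows Aqp7-201 in pup 2 alone.

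AQP4, whose gene lies at chr18:15389496-15410982 on the minus strand, is made as a long and a short form that start at different methionines. In the M21 annotation the Aqp4-201 coding sequence has 323 codons, and 7 other Aqp4 transcripts begin at its codon 23. Those transcripts are not among the deposited features, where Aqp4-201 is the single Aqp4 transcript, so the forms were not separated. In M21 an antisense transcript overlaps Aqp4, and an antisense gene and a processed pseudogene overlap Aqp9 on the other strand. Whether counting used strand is not stated in the labels or file headers, so reads from those overlaps cannot be told apart.

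Genes that work with aquaporins, and the 3 aquaporin genes outside the list of 9, were read from 6 lists of 45 genes in all. Of the 45, 34 were detected, none of them among those 3 aquaporins. A mean count of at least 100 was found for 36. None of these 36 was called different between the pups, against the 0.423% above. In the list of AQP4 anchoring genes and partners, 7 of 8 were detected, led by dystroglycan Dag1 (47.8 ± 3.86 SD, n = 2), dystrophin Dmd (13.5 ± 0.382) and the syntrophin Sntb1 (7.10 ± 0.919). The potassium channel Kcnj10, the partner of AQP4 in glia and also a channel of parietal cells, stood at 0.14 and 0.21. The vasopressin and trafficking list had 6 of 10 detected, led by Vta1 (78.1 ± 5.10), the vesicle fusion genes Vamp2 (41.3 ± 6.50) and Stx4a (24.6 ± 0.127). Of the receptors, Avpr1a stood at 6.58 and 6.26, whereas Avpr2, which controls AQP2 in the kidney, stood at 0.55 and 0.36.

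Glycerol handling genes, which bear on Aqp3, Aqp7 and Aqp9, had 7 of 8 detected. The lipases Mgll (86.1 ± 4.57) and Pnpla2 (71.9 ± 3.66) led, followed by the mitochondrial glycerol phosphate dehydrogenase Gpd2 (27.6 ± 0.552). The fat droplet gene Plin1 had 1 count in each pup. Osmotic stress genes had 6 of 7 detected, led by the aldose reductase Akr1b3 (163 ± 0.276), the amino acid carrier Slc38a2 (48.8 ± 4.52) and Lrrc8a, a subunit of the volume-regulated anion channel (26.7 ± 0.841). Ion transport genes had 8 of 9 detected, among them the sodium pump subunit Atp1b1 (187 ± 5.56) and the chloride channel Ano1 (31.3 ± 5.42). The chloride channel Cftr stood at 0.49 and 0.43. Over genes with a mean TPM of at least 1, the medians of these 5 lists lay between 6.45 and 25.1 in pup 1 and between 6.40 and 25.1 in pup 2, against 12.5 and 12.9 over 13339 protein-coding genes cut the same way.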

How the data were processed

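The authors deposited 1 gene and 1 transcript table per library, made from 10 ng of RNA over 200 bases per the labels. Build mm10 is named in the labels and GENCODE M4 in a text file that came with the samples. No aligner or quantification program is named, per the labels and file headers. The deposited expected counts are estimated reads per feature. The TPM values deposited by the authors are scaled to 1000000 over all features, spike-ins included, with a posterior mean and a credibility interval. The level of that interval is not stated; its median width on each side was 2.11 Poisson errors over 5110 genes with certain counts. The deposited FPKM values and the deposited transcript shares, in percent of gene TPM, were also used.

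Symbols, positions and coding sequences came from GENCODE M21, matched on identifiers without version; its Aqp11-201 lacks a start codon, so Aqp11-205, which the tables do not hold, was used for the coding sequence. Box positions were computed from exon and coding coordinates. No protein table was used, so no protein is printed. Counts were rounded to whole numbers for TMM scaling (edgeR 4.0.16) and size factors (DESeq2 1.42.0), after filterByExpr, which kept 17904 genes; the scaling factors were 0.992 and 1.01 (TMM) and 1.01 and 0.994 (DESeq2). edgeR gave a biological coefficient of variation between the pups of 0.0941. Spike-in entries held 249 and 337 counts. Python 3.11.15 and scipy 1.17.1 gave the exact binomial intervals.

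The labels describe separate stomachs of littermates, so the libraries were treated as 2 samples of 1 group. The aquaporins and all gene lists were chosen with earlier results of these data known. All 9 members and the other aquaporins are named whatever their level, and of each further list the 3 highest genes and any gene called different, except 1 gene that is not reported here. Other genes named (Atp4a, Krt5, Gast, Pdx1, Scgb1a1, Sftpc, Sftpb, Amy2a5, C1qb, Camp, Umod, Cidea, Cfd, Kcnj10, Avpr1a, Avpr2, Plin1, Cftr) were chosen after their values were seen. The leading genes of the 18 marker lists are not all named, and the marker sums without 1 gene were added after seeing the data.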

Additional observations from a re-analysis of the deposited data

How the results depend on the processing

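Within a library, FPKM keeps the order of TPM by construction. The order of the 9 aquaporins was the same with the posterior mean TPM and in each pup alone. Their summed TPM was 219 with the posterior mean and between 211 and 230.5 in single pups, and 261 when TPM was rescaled to nuclear protein-coding genes, which raises all genes by construction. With the posterior mean, Aqp7 stood at 0.545 against 0.37 and Aqp9 at 2.57 against 2.10. The mean share of Aqp7-202 was 41.2% against 73.5%, that of Aqp9-202 61.4% against 85.1%, that of Aqp5-202 81.4% against 100% and that of Aqp8-201 54.4% against 79.8%. The number detected was 7, 6 and 3 at a TPM of at least 0.1, 0.5 and 5, and between 5 and 6 in single pups, where Aqp5 passed in pup 2 alone. The number of genes called different between the pups was 59 as reported, 228 at 1.5-fold and 13 at 3-fold. It was 158 with a minimum mean count of 10 and 10 with a minimum of 1000. Of the aquaporins, 1 of 7 (Aqp5) was called with the minimum of 10, against 0.854% of 18492 genes, and 0 under the other 3 settings. Aqp5, with a mean count of 49.5, lay below the count limit of those 3 settings and could not be called there. At 1.5-fold and 3-fold, 13951 genes met the limit of 100, 5 of them members. Only Aqp1 and Aqp3 among the members reached a mean count of 1000. The median log2 ratio of the members was 0.14 with a pseudocount of 0.1, 0.10 with TMM-scaled CPM and 0.11 with DESeq2 size factors. The 9 single log2 ratios kept their direction with TMM-scaled CPM and with DESeq2 size factors. A change of pseudocount cannot alter a direction. No paired analysis was possible because the labels give 1 group. Fewer than 100 counts limit Aqp2, Aqp5, Aqp7 and Aqp8.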
